A study of Mus musculus with 3 samples.

Results

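The early response of RAW264.7 cells to lipopolysaccharide (LPS) was read by comparing the array after 2 h of LPS with the array at 0 h, 2 of the 3 arrays of a time course that also has a 12 h array. All non-control probe sets that the platform annotation gives to 1 gene were taken. These were 20380 of 22690 probe sets and stood for 12393 genes, of which 8422 were measured, that is, at or above a floor of 34.96 signal units on at least 1 of the 2 arrays. RAW264.7 is a mouse macrophage line, and each time was read from total RNA on 1 array. The 0 h group had no LPS time and the 2 h group had 2 h of it, and no untreated 2 h culture is among the samples, so the effect of LPS and that of time in culture are read together. No source used here gives the LPS dose or strain.

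LPS is a glycolipid of the outer membrane of Gram-negative bacteria. On macrophages it is handed by CD14 to the receptor pair of TLR4 and MD-2 (gene Ly96), which signals through the adaptors MyD88 and TRIF to NF-kB, to the MAP kinases that drive AP-1 factors, and to interferon regulatory factors. The first transcripts made include cytokines and chemokines, and also inhibitors that act back on the same pathway, such as IkB proteins, A20, MAP kinase phosphatases and SOCS proteins.

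Signals are linear probe set intensities, scaled to one mean per array. The brightest probe set stood for its gene, and signals below the floor were raised to it before a fold was taken. For a gene below the floor on just 1 of the arrays the fold is thus a lower limit, marked "at least". With 1 array per time there is no replicate check and no p-value, and a gene is counted here when its signals were at least 2-fold apart. The only error the arrays hold is the spread among probe sets of one gene, a pooled SD of 0.32 on the log2 scale over 2708 genes, and the error between cultures was not measured. In RNA from a whole culture, fewer cells making a transcript and less of it per cell cannot be told apart.

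The cells carried macrophage transcripts on both arrays. All 16 macrophage markers were above the floor at 0 h and at 2 h, with summed signals of 33287 and 33634, and none was 2-fold apart. Spi1, the myeloid factor PU.1, came nearest, with signals of 631 and 1255 and a log2 difference of 0.99, or 1.13 with the arrays set to one median. None of 8 T cell or 4 erythroid markers on the array was above the floor at either time, and of 46 markers of 7 other cell types at most 3 of a type were, with summed signals per type of 135 to 516 at 0 h and 105 to 602 at 2 h. The highest of these was a B cell marker with signals of 325 and 392. The ratio of 3' to 5' control probe sets was 1.11 at 0 h and 0.984 at 2 h for Actb, and 0.713 and 0.665 for Gapdh.

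As read with the floor, increases were larger than decreases. At 2 h, 176 genes were at least 2-fold higher, 2.09% of those measured, and 142 were at least 2-fold lower, 1.69%. The counts of the lists below stand beside these shares. At these shares a short list would hold few such genes, so nothing is read from a count of 0 in it. The increases had a long tail, with 58 genes at least 4-fold higher (0.689%), 26 at least 8-fold and 12 at least 16-fold, against 2 genes at least 4-fold lower and 0 at least 8-fold lower. The middle of the distribution was narrow: among 7504 genes that both arrays read above the floor the median log2 difference was -0.10, with 5% of genes under -0.72 and 5% over 0.60. Of the higher genes 36 came from under the floor, and of the lower genes 30 went under it. Raising signals to the floor of 34.96 caps a decrease by the 0 h signal, which had a median of 136 in lower genes. Large decreases could thus not be read for many genes. An increase is capped by the 2 h signal, with a median of 371 in higher genes.

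**Figure D1:**
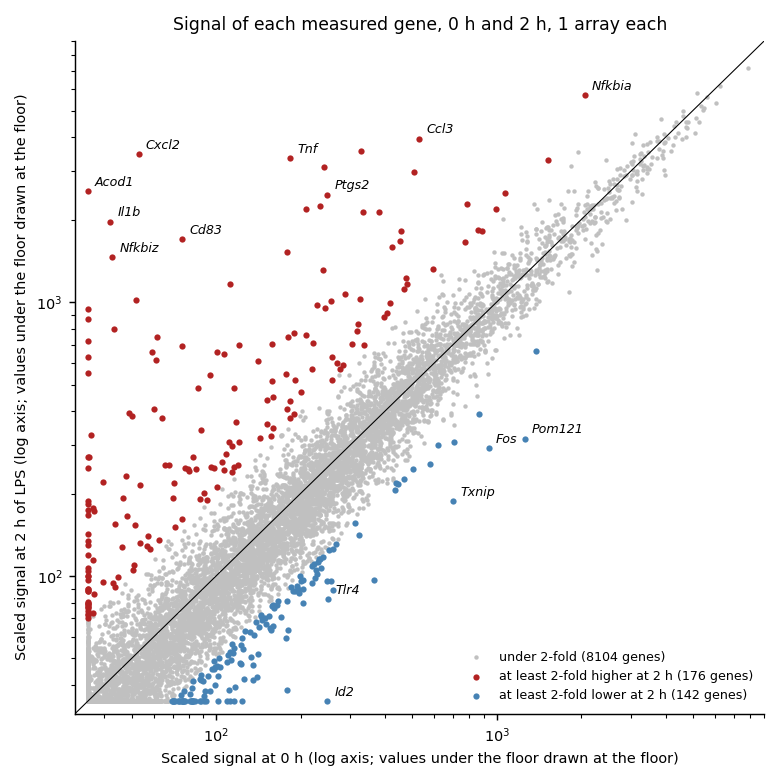
Each point is 1 of the 8422 measured genes, with its scaled signal on the 0 h array on the horizontal log axis and on the 2 h array on the vertical log axis. The 176 genes at least 2-fold higher (red) reach up to Acod1, drawn at the floor at 0 h and at 2546 at 2 h, and Cxcl2 at 53 and 3459. All but 2 of the 142 lower genes (blue) are drawn under 4-fold, with signals under the floor raised to it.

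Higher genes had a median signal of 86.9 at 0 h and 371 at 2 h, lower genes 136 and 55.3, and all measured genes 144 and 131. Before LPS the median of the lower genes was thus close to that of measured genes, and that of the higher genes was under it. Genes above the floor on both arrays were also split into 4 groups of 1876 by mean signal over the 2 arrays. From the dimmest to the brightest group, 1.92%, 2.88%, 0.69% and 0.48% were lower, so lower genes lay mostly in the dimmer groups. The shares higher were 0.59%, 1.97%, 2.13% and 2.77%. The median log2 difference also moved with signal, from -0.18 in the dimmest group to -0.01 in the brightest. Another measured probe set existed for 71 higher genes, and the mean of the others was in the same direction for 65 of them and at least 2-fold for 43. For 51 lower genes these numbers were 47 and 10. With the arrays set to one median, which moved the median log2 difference to 0.04, 225 genes were higher and 73 lower. Under all 10 alternatives of scaling, floor and probe set choice 82 higher and 10 lower genes kept their 2-fold difference. A gene without a value under an alternative was counted as losing it. With suffixed probe sets left out 31 higher and 27 lower genes had no value. With a floor at the 60th percentile 12 and 26 had none.

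Chemokines, the secreted proteins that draw leukocytes into tissue, were among the largest increases. Of the 10 measured CC chemokine genes 5 were 2-fold or more higher and none was lower, with a list median of 0.85 on the log2 scale against -0.10 for all measured genes. Ccl3 and Ccl4, which encode the macrophage inflammatory proteins, had signals of 531 and 328 at 0 h, so both were already read clearly before LPS, and 3953 and 3556 at 2 h. These are increases of 7.45-fold and 10.8-fold. Ccl2, the monocyte chemoattractant, had 452 and 1672 (3.70-fold), and Ccl5, the T cell attractant RANTES, had 43.3 and 796 (18.4-fold). Ccl22 was at 5.79, under the floor, and 89.7, at least 2.57-fold, but with a higher floor, at the 60th percentile, it was under 2-fold. The other 5 measured members were within 2-fold, among them Ccl9, which was read at 3034 and 3824, and Ccl7 at 44.4 and 53.3. Members of this family thus differed widely among themselves at 2 h.

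Of 8 measured CXC and CX3C chemokine genes 3 were higher and none lower, with a median of 0.73. Cxcl2, a ligand of the neutrophil receptor CXCR2, stood at 53 at 0 h and 3459 at 2 h, the largest increase of any gene above the floor on both arrays at 65.3-fold. Cxcl10 and Cxcl11, ligands of CXCR3 on activated T cells, were read at 209 and 2194 and at 58.2 and 126. The first was 10.5-fold higher and the second 2.16-fold, which was under 2-fold with a pseudocount or with the higher floor. Cxcl16 had 557 and 1027, a log2 difference of 0.88, or 1.03 with the arrays set to one median, and Pf4 was at 285 and 278. Cxcl1, Cxcl5, Cxcl9, Cxcl12 and Ppbp were under the floor on both arrays.

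Cytokine genes showed the same unevenness. Il1b, the pyrogenic cytokine that caspase-1 matures, had 42.1 and 1968 (46.8-fold), and Il1a, which acts on the same receptor, had 5.99, under the floor, and 183, at least 5.24-fold. Nlrp3, the inflammasome sensor, was at 269.6 and 599 (2.22-fold). The partners that process or oppose these cytokines were within 2-fold: Casp1 was read at 348 and 338, Il18 at 122 and 111, and Il1rn, the receptor antagonist, at 196 and 323. In all, 3 of 8 members of the IL-1 and inflammasome list were higher and none lower.

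Of 12 measured interleukins and colony factors, Lif and Csf3 alone were at least 2-fold higher. Lif, which signals through gp130, had 9.19 at 0 h and 721 at 2 h, at least 20.6-fold, and the median over its probe sets put its log2 difference at 3.38 in place of 4.37. Csf3, the granulocyte growth factor, had 8.89 and 248, at least 7.11-fold. Il10 was read at 31.5 and 57.6, Ifnb1 at 34.4 and 54.1, and Il12b at 39.1 and 38.4, all close to the floor and within 2-fold at 2 h. Il6, Il23a and Csf2 were under it on both arrays.

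In the TNF family 7 of 17 measured genes were higher and none lower. Tnf itself, read by 1 probe set, had 184 at 0 h and 3346 at 2 h (18.2-fold). Tnfsf9, the ligand 4-1BBL, was at 64.2 and 378 (5.89-fold), and Ltb, a lymphotoxin subunit, was at 10.6 and 100.3, at least 2.87-fold. On the receptor side Cd40 was at 47.8 and 231 (4.84-fold), the TWEAK receptor gene Tnfrsf12a at 67.8 and 254 (3.75-fold), and Fas at 3.70 and 74.4 (at least 2.13-fold). Of the receptors of TNF, Tnfrsf1b was at 79.9 and 243, 3.04-fold higher, but its other probe set was at 61.8 and 87.6, 1.42-fold higher. Tnfrsf1a was at 520.3 and 400.0, a log2 difference of -0.38. With the higher floor Ltb was under 2-fold and Fas had no value. Among 11 measured growth factor and matrix signal genes, Pdgfb, a mitogen for mesenchymal cells, was at 179 and 1522 (8.49-fold), and the Notch ligand gene Jag1 at 53.7 and 132 (2.46-fold, under 2-fold with a pseudocount). Igf1 was at 2303 and 1785, and no member was 2-fold lower.

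At the receptor end of the pathway 1 gene was higher and 1 lower among 16 measured Toll-like receptors and co-receptors. These are 6.25% each, against 2.09% higher and 1.69% lower of all measured genes. Tlr4, the LPS receptor, had 251 at 0 h and 82.2 at 2 h, 3.06-fold lower, and its other probe set had 196 and 41.3. Tlr2, which recognises bacterial lipoproteins, had 994 and 2191, 2.20-fold higher. The partners of Tlr4 kept their signals within 2-fold, at 4599 and 4998 for Cd14 and 131 and 122 for Ly96. Tlr1 and Tlr6, which pair with Tlr2, had log2 differences of 0.63 and 0.68 over low signals.

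Of 23 measured adaptors and kinases downstream, 2 were higher and none lower. Peli1, a ubiquitin ligase of the pathway, was at 95.4 and 539.8 (5.66-fold), and Ikbke, the kinase IKK epsilon, at 86.4 and 485 (5.62-fold). Core members were within 2-fold, such as Myd88 at 471 and 421, Traf6 at 92.7 and 113, Map3k7 at 157 and 175, Ikbkb at 229.7 and 258 and Tbk1 at 269 and 267. Map3k14, the kinase NIK of the alternative NF-kB pathway, had 202 and 108, a log2 difference of -0.90. Of 24 cytokine receptor genes none was higher, against 2.09% of all measured genes, so nothing is read from that count. Tgfbr2, the TGF-beta receptor, was at 863 and 392 (2.20-fold lower). The median over the probe sets of Tgfbr2 was -0.76, under 2-fold, and with the arrays set to one median it was just under 2-fold. Ifngr1 was at 252 and 146, within 2-fold.

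Among chemoattractant and lipid mediator receptors 3 of 13 were higher. Ccrl2, which presents chemerin, was at 35.8 and 327 (9.14-fold), Gpr84, a receptor for medium-chain fatty acids, at 509 and 2974 (5.84-fold), and Hcar2, the niacin receptor, at 7.59 and 143 (at least 4.09-fold). Hcar2 was under 2-fold with the higher floor. The complement receptor genes C5ar1 and C3ar1 had log2 differences of 0.74 and 0.50.

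NF-kB proteins and their inhibitors were the list with the highest median, 1.62 on the log2 scale, with 7 of 10 members higher and none lower. Nfkbiz, an atypical IkB protein that works in the nucleus, had 42.7 at 0 h and 1458 at 2 h (34.2-fold). Of the subunits, Rel was at 35.3 and 272 (7.72-fold), Nfkb2 at 65.6 and 254 (3.87-fold) and Relb at 21.8, under the floor, and 119.5 (at least 3.42-fold). The subunit Rela, in contrast, was read at 448 and 424. Of the inhibitors that hold NF-kB in the cytoplasm, Nfkbia was at 2061 and 5705 (2.77-fold), and its 3 other probe sets had log2 differences of 2.65, 2.47 and 1.28. Nfkbie was at 36.7 and 173 (4.71-fold), while Nfkbib was at 183 and 257, within 2-fold. Bcl3, a nuclear IkB protein, was at 56.7 and 129 (2.27-fold), and it was under 2-fold with a pseudocount or the higher floor. Relb was under 2-fold with the higher floor, and Nfkb1 was not analysed here.

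A list of A20, its partners, TRAF1, ubiquitin enzymes and other TNF-induced proteins had 6 higher genes of 16 and none lower. Traf1 was at 14.2 and 552 (at least 15.8-fold), Tnfaip2 at 242 and 3103 (12.8-fold), and Tnfaip3, the ubiquitin-editing enzyme A20, at 60.2 and 409 (6.78-fold). Tnip1, a binding partner of A20, was at 423 and 1596 (3.78-fold). The survival gene Birc3 was at 177 and 547 (3.09-fold), whereas its relative Birc2 was at 113 and 199.9, a log2 difference of 0.82. Other partners of A20 were close to equal, such as Tnip2 at 75.4 and 75.9 and Tax1bp1 at 307 and 326.

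Promoters of 8 higher genes are shown because these genes, chosen after their values were seen from those with a match, carry the NF-kB motif close to the start of transcription. The sequences are from RefSeq, build GRCm38.p6, written 5′ to 3′ on the strand of the gene and ending at the base before the start. Capitals mark matches to the NF-kB site searched, a 10-base motif, on either strand, with overlapping matches joined. Cxcl2 is at chr5:90903759-90903898 on the plus strand, Cxcl10 at chr5:92348890-92349069 on the minus strand, Rel at chr11:23770970-23771109 on the minus strand and Tnfaip3 at chr10:19015411-19015570 on the minus strand. Nfkbie is at chr17:45555560-45555699 on the plus strand, Nfkb2 at chr19:46304597-46304736 on the plus strand, Tnip1 at chr11:54962941-54963080 on the minus strand and Ier3 at chr17:35821573-35821712 on the plus strand.
Cxcl2: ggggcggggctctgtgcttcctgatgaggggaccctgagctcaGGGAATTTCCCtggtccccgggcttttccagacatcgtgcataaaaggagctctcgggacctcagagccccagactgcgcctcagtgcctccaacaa
Cxcl10: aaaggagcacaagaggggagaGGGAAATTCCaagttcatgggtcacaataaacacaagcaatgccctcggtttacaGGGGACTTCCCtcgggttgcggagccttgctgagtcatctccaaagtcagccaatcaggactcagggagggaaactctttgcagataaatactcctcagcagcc
Rel: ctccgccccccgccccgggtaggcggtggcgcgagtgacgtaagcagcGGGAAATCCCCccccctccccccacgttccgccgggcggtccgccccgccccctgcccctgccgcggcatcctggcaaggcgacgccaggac
Tnfaip3: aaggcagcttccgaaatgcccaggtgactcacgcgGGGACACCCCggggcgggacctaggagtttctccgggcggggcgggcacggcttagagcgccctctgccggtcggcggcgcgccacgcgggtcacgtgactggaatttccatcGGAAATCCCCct
Nfkbie: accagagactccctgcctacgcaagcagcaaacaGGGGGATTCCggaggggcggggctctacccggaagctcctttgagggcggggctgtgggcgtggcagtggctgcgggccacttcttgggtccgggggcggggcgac
Nfkb2: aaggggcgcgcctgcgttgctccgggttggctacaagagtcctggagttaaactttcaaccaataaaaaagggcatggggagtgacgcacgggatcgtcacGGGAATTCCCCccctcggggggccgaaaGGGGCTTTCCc
Tnip1: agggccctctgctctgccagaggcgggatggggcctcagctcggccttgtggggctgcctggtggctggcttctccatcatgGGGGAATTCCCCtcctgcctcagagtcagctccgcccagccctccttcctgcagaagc
Ier3: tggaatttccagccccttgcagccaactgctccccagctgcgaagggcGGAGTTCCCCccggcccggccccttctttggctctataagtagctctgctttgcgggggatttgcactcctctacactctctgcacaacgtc

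The Cxcl2 stretch runs from 97 to 87 bases upstream of the start, and Cxcl10 has 2 stretches, one beginning 159 and the other 104 bases upstream. Those of Rel and Ier3 both begin 92 bases upstream, that of Nfkbie 106 and that of Tnip1 58. Tnfaip3 and Nfkb2 have 2 stretches each, the nearer ones ending 3 and 2 bases before the start. Most of these stretches pair a run of G with a run of C across a short A and T centre, as in GGGAATTTCCC of Cxcl2 and GGGGAATTCCCC of Tnip1.

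The motif was more frequent in front of higher genes than in front of genes at large. Promoters of 250 bases before the start were found for 140 of the 176 higher genes, 111 of the 142 lower genes and 6876 of the 8422 measured genes, and a gene with several starts counts each. The NF-kB site was in 24.6% of 65 promoters of genes at least 4-fold higher, 16.8% of 184 promoters of genes at least 2-fold higher and 10.2% of 147 promoters of lower genes. It was in 9.18% of 8854 promoters of measured genes and 7.25% of all 32851 promoters listed. The AP-1 site, TGACTCA or its complement TGAGTCA, was in 10.8% of promoters at least 4-fold higher, 7.61% at least 2-fold higher, 3.40% lower, 3.44% of measured genes and 4.46% of all. Higher genes with it include Lif, Cxcl10, Tnfaip3, Il1a and Plaur. These shares are descriptions: a match is not a bound site, and no test was made of the difference between the groups.

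**Figure D2:**
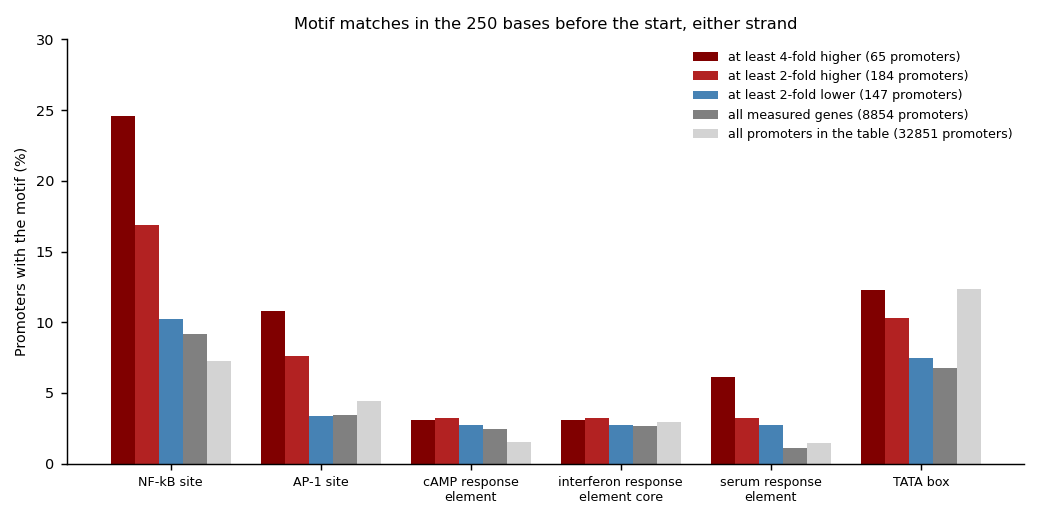
Bars give the percentage of promoters, 250 bases before each listed start, that hold a motif on either strand, for 5 sets of genes. The NF-kB site stands at 24.6% for genes at least 4-fold higher against 9.18% for all measured genes, and the interferon response element core is near 3% in every set.

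The interferon response element core, GAAANNGAAA, was in 3.26% of promoters of genes at least 2-fold higher and 2.70% of those of measured genes, with Cxcl10, Saa3 and Tnfrsf1b among its 6 higher genes. The cAMP response element, TGACGTCA, was in 3.26% against 2.46%, in front of Dusp1, Maff and Ppp1r15a among others. A serum response element, a 10-base motif, was in 6.15% of promoters at least 4-fold higher against 1.11% of measured genes, but all 4 promoters with it are listed starts of 1 gene, Egr2. The TATA box, TATAAA, was in 12.3% of promoters at least 4-fold higher, 6.74% of measured genes and 12.4% of all, and the GC box, GGGCGG, was in 46.2%, 56.9% and 32.7%, so it was less frequent in front of the genes at least 4-fold higher than in front of measured genes. Promoters at least 4-fold higher held a median of 11 CpG, against 15 for measured genes and 16 for lower genes.

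Of 16 measured MAP kinase phosphatases and Sprouty genes 2 were higher and 1 lower, with a median of -0.34. Dusp2 and Dusp1, phosphatases that switch MAP kinases off, were at 75.8 and 692 (9.13-fold) and at 158 and 705 (4.47-fold). Other members of the family were lower or within 2-fold: Dusp14 was at 82 and 39.2 (2.09-fold lower), Dusp6 at 84.7 and 44.8 and Dusp16 at 79.1 and 139. Dusp14 was under 2-fold with the arrays set to one median. In the MAP kinase cascade itself only Mapkapk2, which p38 activates, was 2-fold apart of 22 genes, at 337 and 699 (2.07-fold), and with a pseudocount it was at 0.98 on the log2 scale.

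Socs3 and Pim1, both targets of STAT3 signalling, were under the floor at 0 h, at 15.8 and 16.3, and were read at 944 and 871 at 2 h. These are at least 27-fold and at least 24.9-fold, or log2 differences of 3.80 and 3.76 by the median over probe sets in place of 4.76 and 4.64. Jak2 was at 152 and 359 (2.36-fold), Cish, a SOCS family member, at 90.9 and 200.2 (2.20-fold), and the phosphatase gene Ptpn2 at 284 and 591 (2.08-fold). Cish and Ptpn2 were under 2-fold with a pseudocount. Another probe set of Ptpn2 was at 237 and 219, a log2 difference of -0.11. The median over the probe sets of Ptpn2 was 0.51, under 2-fold. Pim3 was at 200.4 and 469 (2.34-fold) by a probe set whose suffix marks possible cross-hybridisation, and the probe set without one gave -0.19 on the log2 scale, the opposite sign. In all 6 of 25 genes were higher and none lower.

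**Figure D3:**
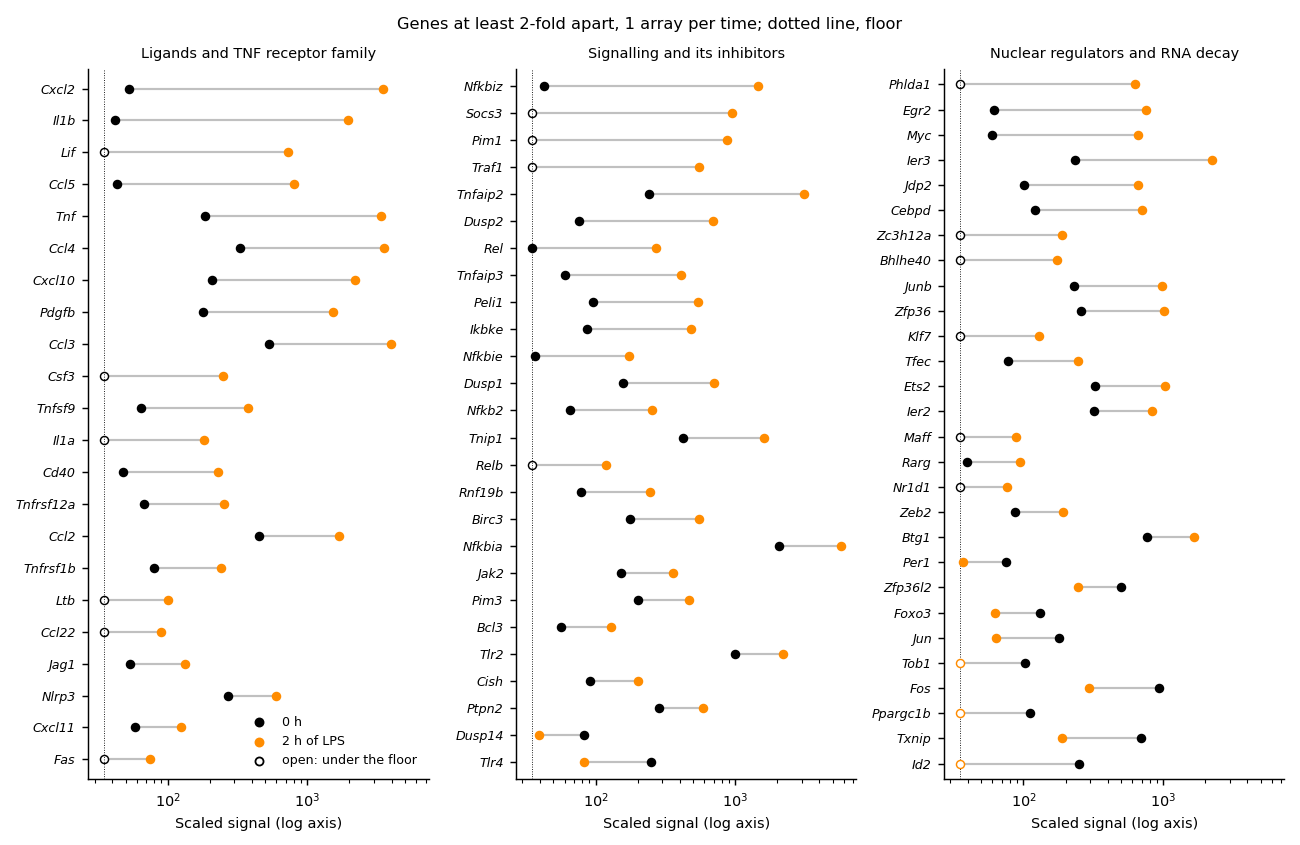
Genes at least 2-fold apart in the lists of chemokines, cytokines, the TNF family and growth factors (left), Toll-like receptors, signalling proteins and their inhibitors (middle) and nuclear regulators and RNA decay factors (right), each with its scaled signal at 0 h (black) and 2 h (orange) on a log axis. Every gene in the left panel is higher at 2 h, and Dusp14 and Tlr4 are the lower genes of the middle panel.

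Transcription factors of the early response split. Of 20 measured AP-1, ATF and Maf genes 3 were higher and 2 lower. Junb was at 229.6 and 979 (4.26-fold), Jdp2, an AP-1 repressor, at 101 and 659 (6.55-fold) and Maff at 4.0 and 88.5 (at least 2.53-fold, and under 2-fold with the higher floor). Fos and Jun, the founding pair of AP-1, were lower at 2 h. Fos was at 938 and 294 (3.20-fold lower) and Jun at 181 and 63.7 (2.84-fold lower), with a second Jun probe set at 85.1 and 52.8. Atf3 and Jund lay just under the limit, at 202 and 399.5 and at 273 and 544, with log2 differences of 0.98 and 0.99, or 1.13 and 1.14 with the arrays set to one median.

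Of 30 Egr, Klf, Nr4a, Myc and Ier genes, with other early genes listed among them, 6 were higher and 1 lower. Egr2 was at 61.4 and 748 (12.2-fold), Myc at 59.1 and 656 (11.1-fold), and Ier3 and Ier2 at 235 and 2245 (9.56-fold) and at 319 and 831 (2.60-fold). Phlda1 was at 32.6 and 629, at least 18-fold. Klf7 was at 30.6 and 129, at least 3.70-fold and under 2-fold with the higher floor. Txnip, which binds thioredoxin and restrains glucose uptake, was the lower member at 698 and 188 (3.71-fold lower), and its second probe set had 470.1 and 116.

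Among 45 C/EBP, Id, Ets and lineage factors 5 were higher and 2 lower. Cebpd was at 121 and 700.0 (5.78-fold), Ets2 at 327 and 1027 (3.14-fold), Tfec at 77.7 and 247 (3.18-fold) and Bhlhe40 at 15.2 and 175 (at least 5.0-fold). Zeb2 was at 87.4 and 191 (2.19-fold, or 0.89 on the log2 scale with a pseudocount). Id2, which blocks helix-loop-helix factors from binding DNA, had 249 at 0 h and 31.6, under the floor, at 2 h. It was at least 7.12-fold lower, the largest decrease of all, and a second probe set had 134 and 22.5. Foxo3 was at 132 and 62.5 (2.12-fold lower, under 2-fold with the arrays set to one median).

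None of 13 measured IRF and STAT genes was 2-fold apart, and at the shares of all measured genes so short a list would hold few. Irf1 was at 244 and 259, Irf7 at 204 and 230.3, Irf8 at 130.2 and 71.9 and Stat5a at 60.5 and 115. Log2 differences in this list ran from -0.86 for Irf8 to 0.92 for Stat5a, which was at 1.07 with the arrays set to one median, 1.03 under quantile normalization and 1.11 by the median over probe sets. Of 36 interferon-stimulated genes 3 were higher and none lower: Slfn2 at 380.1 and 2133 (5.61-fold), Oasl1 at 241 and 1308 (5.42-fold) and the RNA sensor gene Ifih1 at 141 and 612 (4.34-fold). Typical members were within 2-fold at this time, such as Ifit1 at 66.4 and 102, Rsad2 at 98.3 and 169 and Usp18 at 219 and 146, and the list median was -0.08.

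Nuclear receptor and stress factor genes gave 2 higher and 2 lower of 25. The clock genes differed in direction, with Nr1d1 at 15.6 and 76.8 (at least 2.20-fold higher) and Per1 at 74.7 and 36.7 (2.04-fold lower), both over low signals. Per1 was under 2-fold with the arrays set to one median, and Nr1d1 had no value with the higher floor. Rarg, a retinoic acid receptor, was at 39.6 and 95 (2.40-fold, under 2-fold with a pseudocount). Ppargc1b, a coactivator of mitochondrial genes, was at 112 and 26, at least 3.21-fold lower and under 2-fold with the higher floor.

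Of 33 mRNA decay and silencing genes 3 were higher and 2 lower, with a median of -0.13. Zfp36, which encodes tristetraprolin, was at 256 and 1008 (3.93-fold), and Zc3h12a, the RNase regnase-1, was at 20.6 and 188 (at least 5.39-fold). Btg1, a partner of the CCR4-NOT deadenylase, was at 769.7 and 1656 (2.15-fold). The lower ones were relatives: Zfp36l2 was at 502 and 246 (2.04-fold lower) and Tob1 at 102 and 34.7 (at least 2.92-fold lower). Zfp36l2 was under 2-fold with the arrays set to one median, and Tob1 with the higher floor. The other 28 were within 2-fold, among them Zfp36l1 at 64.6 and 44.4 and Cnot7 at 401 and 460.0.

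Growth arrest and p53 target genes were split, with 4 higher and 5 lower of 20. Gadd45b was at 51.9 and 1021 (19.7-fold, or 2.70 in place of 4.30 on the log2 scale by the median over probe sets), Cdkn1a, the cyclin-dependent kinase inhibitor p21, at 596 and 1325 (2.23-fold), and Ppp1r15a at 43.6 and 155 (3.57-fold). Gadd45a was at 14.7 and 105 (at least 3.0-fold), while Gadd45g was at 82.3 and 31.9 (at least 2.36-fold lower). Gadd45a and Ppp1r15a were under 2-fold with the higher floor, and Gadd45g with a pseudocount. Sesn1, a p53 target that restrains mTORC1, was at 249 and 96.2 (2.59-fold lower). Ccng2 at 81.7 and 21.9 (at least 2.34-fold lower) and Cdkn2d at 262 and 126 (2.08-fold lower) were under 2-fold with a pseudocount. Mdm4 was at 111 and 38.5 (2.90-fold lower), but its probe set without a suffix gave 0.42 on the log2 scale, the opposite sign.

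In the survival list 2 of 25 genes were higher and none lower. These have opposed roles: Cflar, which blocks caspase-8, was at 116 and 485 (4.19-fold), and Bcl2l11, the death-promoting protein BIM, was at 159 and 449.6 (2.82-fold). Cell cycle and replication genes had 0 higher and 4 lower of 57, with a median of -0.25. Cdc6, which loads the replicative helicase, was at 136 and 47.3 (2.88-fold lower), and Cdt1, its partner in that step, at 1386 and 663 (2.09-fold lower). Wee1 was at 161 and 76.3 (2.11-fold lower) and Ccne2 at 241 and 118 (2.05-fold lower). A second probe set of Cdt1 was at 628 and 578, and that of Wee1 at 94.1 and 69.6, both within 2-fold. Cdt1, Wee1 and Ccne2 were under 2-fold with the arrays set to one median, and Cdc6 with the higher floor.

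Enzymes that make small mediators held the largest bound of all. Acod1, which makes itaconate, was at 10.2, under the floor, and 2546, at least 72.8-fold. Ptgs2, the inducible prostaglandin synthase, was at 249 and 2463 (9.90-fold), and Gch1, which begins synthesis of a nitric oxide synthase cofactor, was at 144 and 319 (2.22-fold, or 0.99 on the log2 scale with a pseudocount). Nos2 was under the floor on both arrays. The remaining 15 of the 18 measured genes of this list were within 2-fold, among them Ptges at 131 and 145 and Pla2g4a at 965 and 776.

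Of 25 oxidant and NRF2 pathway genes 3 were higher and none lower. Slc7a11, the cystine transporter, was at 88.4 and 340.0 (3.85-fold), Srxn1, which repairs peroxiredoxins, at 222 and 708 (3.20-fold), and Sqstm1, the autophagy receptor p62, at 1069.9 and 2496 (2.33-fold). Hmox1 and Gclc, targets of the same pathway, were at 323 and 249.5 and at 478 and 266, within 2-fold. Sod2 was at 979 and 1522, and Cybb, the phagocyte oxidase subunit, at 615 and 983.

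Surface molecules of adhesion and costimulation gave 8 higher genes of 43 and 1 lower. Cd83 was at 75.8 and 1695 (22.4-fold), the lectin-like receptor gene Olr1 at 26.3 and 271 (at least 7.75-fold), and Itga5, a fibronectin receptor subunit, at 107 and 645 (6.03-fold). Icam1 was at 288 and 1071 (3.72-fold), Icosl at 51.3 and 154 (3.0-fold, under 2-fold with the higher floor) and Clec4e, the receptor Mincle, at 787 and 2277 (2.90-fold). Itgb7 at 18 and 79 and Vcam1 at 6.29 and 70.2 came from under the floor, at least 2.26-fold and at least 2.01-fold. Both had no value with the higher floor. Costimulators Cd80 and Cd86 were near the floor, at 37.7 and 37.9 and at 35.6 and 20.1. Cd200r1, an inhibitory receptor, was at 73 and 21.9, at least 2.09-fold lower, and was under 2-fold with a pseudocount.

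Proteases, coagulation and acute phase genes had 5 higher and 2 lower of 26. Saa3, an acute phase apolipoprotein, was at 39.7 and 220.0 (5.55-fold), and Plaur, the urokinase receptor, at 456 and 1811 (3.97-fold). The proteoglycan gene Sdc4 was at 180.2 and 745 (4.13-fold), although its probe set without a suffix gave 0.37 on the log2 scale, and Tgm2 was at 114 and 299 (2.62-fold, or 0.87 by the median over probe sets). The iron genes were opposed: Slc11a2, an importer, was at 109 and 279 (2.56-fold higher), and Slc40a1, the exporter ferroportin, was at 138 and 67.8 (2.04-fold lower). Slc11a2 was under 2-fold by the median over probe sets and Slc40a1 with the arrays set to one median. Cfp, the complement protein properdin, was at 580.5 and 257 (2.26-fold lower).

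Regulators of G proteins, cAMP and small GTPases had 5 higher and none lower of 21. Pde4b, which degrades cAMP, was at 61.3 and 613 (10-fold) and Rgs16 at 49 and 393 (8.03-fold). Plk2 was at 152 and 439.7 (2.89-fold), and Rhob at 71.1 and 150.4 and Cdc42ep4 at 101 and 212 were 2.11-fold and 2.10-fold higher, both under 2-fold with a pseudocount. Other Rgs genes did not share this: Rgs2 was at 397 and 262, and Rgs14 at 218 and 113, a log2 difference of -0.95.

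Smaller numbers of metabolic and stress genes were 2-fold apart. Of 157 solute carriers 5 were higher and 2 lower, shares of 3.18% and 1.27% that are near the 2.09% and 1.69% of all measured genes. Besides Slc7a11 and Slc11a2 the higher ones were Slc15a3, a peptide transporter of endosomes, at 111 and 309 (2.79-fold), the phosphate transporter gene Slc20a1 at 304 and 703 (2.31-fold) and Slc31a2 at 114 and 240.4 (2.11-fold, or 0.89 on the log2 scale with a pseudocount). Slc25a42, a mitochondrial carrier of coenzyme A, was at 91.7 and 38.2 (2.40-fold lower), under 2-fold with a pseudocount. Of 32 genes of cholesterol synthesis and LXR, Hmgcs1 was at 478 and 1169 (2.44-fold), with Sc5d at 179 and 406 and Cyp51 at 277 and 572. The last 2 were under 2-fold by the median over probe sets.

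Of 38 heat shock and unfolded protein genes 3 were higher and 1 lower. The co-chaperone gene Dnajb4 was at 50.4 and 384 (7.63-fold), Hspa1b, an inducible HSP70, at 27.7 and 167 (at least 4.77-fold) and Herpud1 at 209 and 757 (3.62-fold). Eif2ak3, the stress kinase PERK, was at 127 and 63.2 (2.02-fold lower). Hspa1b was under 2-fold with the higher floor and Eif2ak3 with the arrays set to one median. Of 51 nucleolar and ribosome synthesis genes, Rrp9 was at 36.6 and 178 (4.86-fold) and Odc1, which starts polyamine synthesis and was grouped with them, at 1519 and 3309 (2.18-fold). Trim13 was the only one of 29 Trim genes 2-fold apart, at 12.6 and 134 (at least 3.83-fold, under 2-fold with the higher floor).

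Several groups of basic cell machinery had no member 2-fold apart. At the shares of all measured genes, 2.09% higher and 1.69% lower, groups of this size would hold few such members, so nothing is read from these counts of 0. The groups were 44 cytosolic and 74 mitochondrial ribosomal protein genes, 82 respiratory chain and ATP synthase genes, 41 proteasome genes, 52 splicing factors and hnRNPs, 36 RNA helicases, 43 lysosomal genes and 47 chromatin regulators. Medians of these groups ran from -0.19, for the chromatin regulators, to 0.01 on the log2 scale, where all measured genes had -0.10. With the arrays set to one median 1 cytosolic and 1 mitochondrial ribosomal protein gene were at least 2-fold higher, and without suffixed probe sets 1 cytosolic gene was higher and 1 of each kind lower. With the lower floor, at the 20th percentile, 1 helicase and 2 chromatin genes were at least 2-fold higher. Actb was at 5161 and 5824 and Hprt at 1285 and 1742. Some other groups had a single gene 2-fold lower and none higher. These genes were the nucleoporin gene Pom121 among 38 nucleoporins and karyopherins, and Usp2 among 56 ubiquitin E2 and Usp genes. Eif2ak3, given above with the stress genes, was the one among 41 genes of the translation initiation factor family. Rab40c, at 197 and 86.7, was the one among 37 Rab genes. Rab40c was under 2-fold with a pseudocount.

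**Figure D4:**
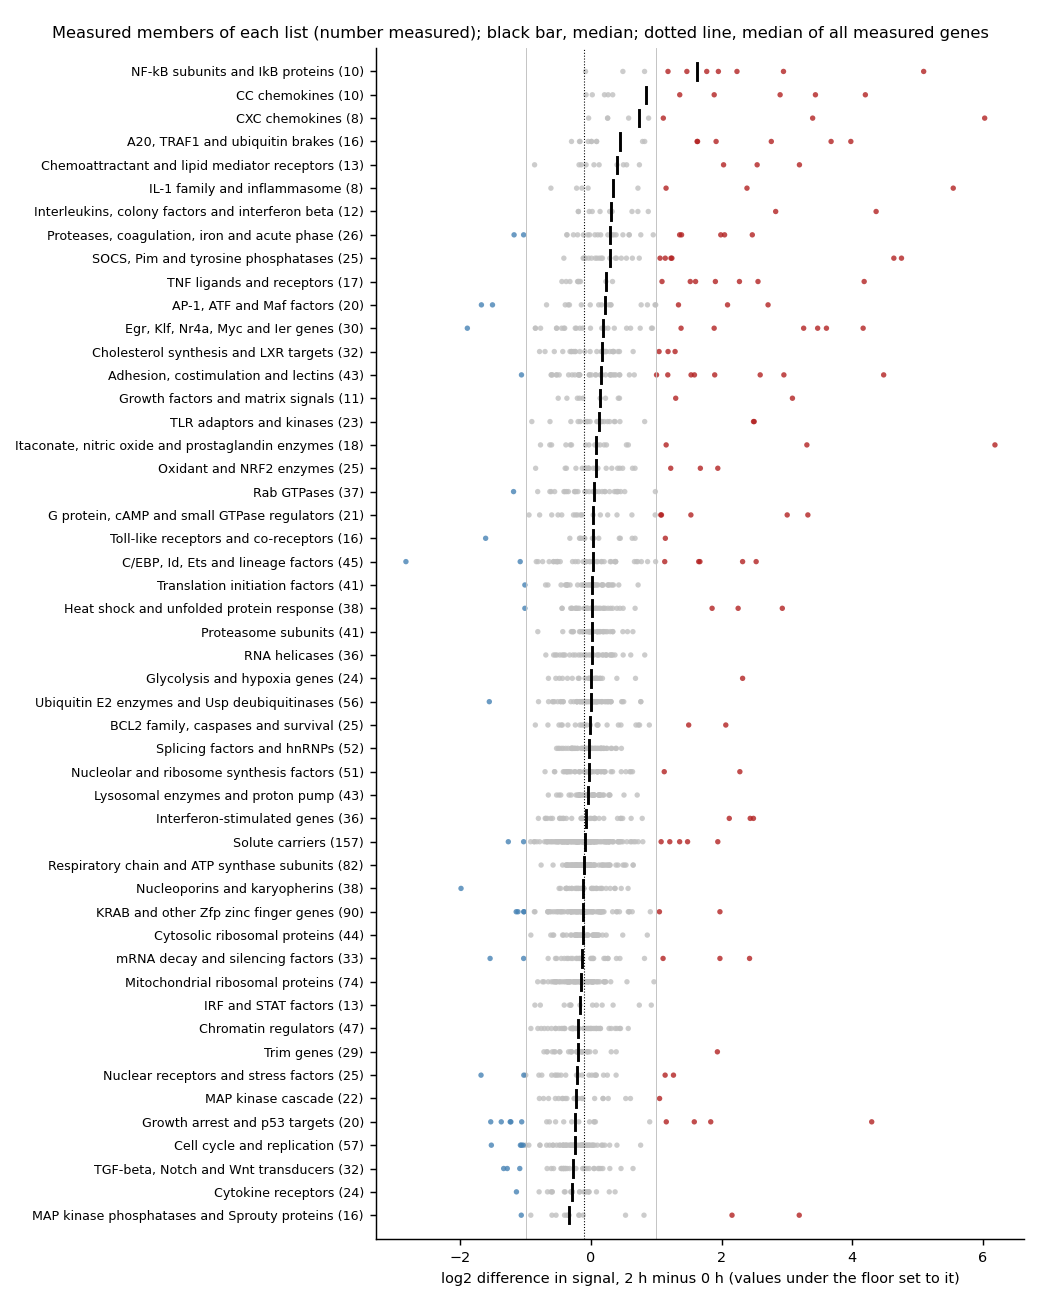
Each row is a list or symbol family with at least 8 measured genes, and each point is the log2 difference of 1 gene, 2 h minus 0 h, red where at least 2-fold higher and blue where at least 2-fold lower. The NF-kB and IkB list has the highest median at 1.62, while ribosomal, respiratory chain, proteasome and splicing genes lie between the 2-fold lines under the scaling used.

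Transducers of TGF-beta, Notch and Wnt signals had 0 higher and 3 lower of 32, with a median of -0.28. Lfng, which modifies Notch, was at 159.8 and 65.8 (2.43-fold lower), Ski, a repressor of SMAD proteins, at 88.2 and 29.4 (at least 2.52-fold lower) and Smad6, an inhibitory SMAD, at 116 and 54.7 (2.13-fold lower). All 3 were under 2-fold with a pseudocount or the higher floor, and Smad6 also with the arrays set to one median, at -0.95, and under quantile normalization, at -0.96. Of 90 Zfp genes 2 were higher and 4 lower, shares of 2.22% and 4.44% against 2.09% and 1.69% of all measured genes. The higher ones were Zfp36, which is no KRAB gene, and Zfp296 at 50.8 and 105 (2.07-fold). The lower ones were Zfp33b, Zfp472, Zfp644 and Zfp777, between 2.03-fold and 2.21-fold lower. With a pseudocount all of these Zfp genes but Zfp36 were under 2-fold.

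Of the 142 lower genes 106 were in none of the lists, and of the 176 higher genes 61 were in none. Mtss1, an actin and membrane binding protein, was at 179.5 and 38.5 (4.67-fold lower), but by the median over its probe sets the log2 difference was -0.45. Pom121, of the nucleoporin list, was at 1258 and 317 (3.97-fold lower), or -1.19 by that median in place of -1.99. Its other probe set was at 92.2 and 70.6, just 1.31-fold lower. St8sia4, a polysialyltransferase, was at 366 and 96.9 (3.77-fold lower), and Usp2, a deubiquitinase of the Usp family, at 261 and 88.8 (2.94-fold lower). Tifa, an adaptor that links TRAF6 to NF-kB, was at 136 and 41.6 (3.27-fold lower), and Tor4a at 257 and 95.7 (2.68-fold lower). Rmi1, a subunit of a DNA repair complex, was at 177 and 59.6 (2.97-fold lower).

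Other decreases over low 2 h signals were those of Calhm2 (139.9 and 43), Lzts2 (126 and 42.2), Rab3il1 (117 and 39.4), Iqsec1 (141 and 51.9), Lor (133 and 50.8) and Mrtfa (123 and 47.7), a coactivator of serum response factor. Genes that went under the floor include Depdc7 from 123 (at least 3.53-fold lower), Olfr1508 from 116, Neurl4 from 109, Mdk from 92, Cplx2 from 87.7 and Chrna4 from 83.9. All 12 of these genes, and Tifa, were under 2-fold or without a value with the higher floor.

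Among higher genes outside the lists Tsc22d1, a leucine zipper protein, was the largest, at 112 and 1168 (10.4-fold). Further genes, picked with their values in view, were these: Marcksl1 was at 335 and 2132 (6.36-fold), Rcan1, an inhibitor of calcineurin, at 190.3 and 770.4 (4.05-fold), Noct, a circadian NADPH phosphatase, at 244 and 955 (3.91-fold) and Errfi1, an inhibitor of EGF receptor kinases, at 82.6 and 272 (3.29-fold). The metallothionein gene Mt2 was at 857 and 1839 (2.15-fold).

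The 12 h array gives a later value for the same genes, and both comparisons share the 0 h array. Cd83 was at 1695 at 2 h and 109.9 at 12 h, Lif at 721 and 38.7, Egr2 at 748 and 95.2, Tnfaip3 at 409 and 68.1 and Tnfsf9 at 378 and 86.9. The 12 h signals of Cd83, Egr2, Tnfaip3 and Tnfsf9 were within 2-fold of those at 0 h, while Lif was under the floor at 0 h, at 9.19, and just above it at 12 h. Cxcl2 was at 3459 and 3702, Acod1 at 2546 and 2558, Ptgs2 at 2463 and 2346 and Ier3 at 2245 and 2391, so the 2 h signals of these genes were close to those at 12 h. Other genes had a higher signal at 12 h: Ccl2 was at 1672 and 4479, Csf3 at 248 and 1142, Slc15a3 at 309 and 1201, and Tnfrsf1b at 243 and 748. These 13 genes were picked with their values in view.

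Of the lower genes, Pom121 was at 317 at 2 h and 311 at 12 h, St8sia4 at 96.9 and 103, Usp2 at 88.8 and 89.1 and Sesn1 at 96.2 and 92.9, all close at the 2 times. Jun was at 63.7 and 179.7, where 0 h had 181, and Tor4a at 95.7 and 249, where 0 h had 257. At 12 h Tlr4, Txnip and Fos lay between their 0 h and 2 h signals. Tlr4 was at 82.2 at 2 h and 175 at 12 h, where 0 h had 251, and Txnip and Fos were at 529 and 582 at 12 h.

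**Figure D5:**
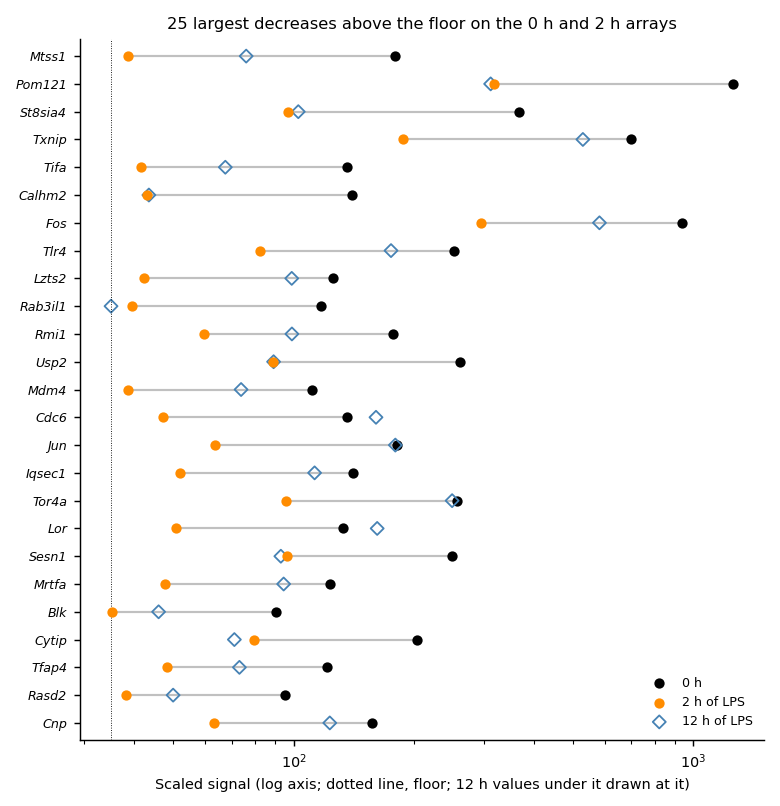
The 25 largest decreases among genes above the floor at 0 h and 2 h, with the scaled signal at 0 h (black), 2 h (orange) and 12 h (open diamonds) on a log axis, 1 array each. At 12 h Pom121, St8sia4 and Usp2 stay near their 2 h signals, and Jun and Tor4a sit at their 0 h signals.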

How the data were processed

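Total RNA of RAW264.7 cells at 0, 2 and 12 h of LPS was hybridised to 1-colour Affymetrix-type arrays, 1 per time, from 5 µg by a modified maker's procedure, per the labels. The authors deposited linear intensity values per probe set, without detection calls. Their 2% trimmed mean was 150.05 on each of the 3 arrays, so they had been scaled to one target, and a change in total mRNA would not be seen. No source used here gives the scanner software or the summarisation method.

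Of 22690 probe sets, 64 were controls, 691 had several genes and 1606 were not listed in the platform annotation. The others had 1 gene, and gene IDs were matched to RefSeq (GRCm38.p6) for 20351 of 20380. Arrays were rescaled to one 2% trimmed mean over non-control probe sets. The floor was the 40th percentile of all scaled values over the 3 arrays, applied before log2. Each gene was read by its brightest probe set, ranked by mean log2 signal. One array a time limits the precision, so no test was run and 2-fold was the limit. Computation used Python 3.11.15, pandas 2.3.3 and numpy 2.4.6.

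The members and the 52 gene lists and symbol families were chosen with earlier results of these data known. Named genes are the 20 largest increases and 20 largest decreases read above the floor at both times, and the 10 largest bounds each way. Every list member 2-fold apart is named too. Of 8 pathway lists only some of the members within 2-fold are named, as examples. Any other gene named was picked with its values in view. Promoter windows are 250 bases before RefSeq starts. Alternatives were other scalings, floors, a pseudocount, other probe set choices and folds of 1.5 and 3.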

Additional observations from a re-analysis of the deposited data

Results flagged for a closer look

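Cd200r1, an inhibitory receptor gene, was on opposite sides of its 0 h signal at the later times. Its log2 difference was -1.06 at 2 h, a bound because the 2 h signal of 21.9 was under the floor, and 1.14 at 12 h, where the signal was 161 against 73.0 at 0 h. The difference between the times was not tested, and both comparisons share the 0 h array.

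Probe sets without 1 named gene were not used in the comparison. Of 2246 such probe sets 1200 were measured, and 27 were at least 2-fold higher and 14 at least 2-fold lower at 2 h. The largest increase among them was 10.9-fold, from a signal of 151 to 1646, and the largest decrease 4.15-fold, from 265.3 to 64.0. They stay unnamed here.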

How the results depend on the processing

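The count of higher genes was 176, and it ran from 131 to 225 under other scalings, a floor at the 60th percentile, a floor from the 0 h and 2 h arrays alone, a pseudocount and other probe set choices. A floor at the 20th percentile gave 350, and the count was 472 at 1.5-fold and 87 at 3-fold. The count of lower genes, 142, was less stable. It was 73 with the arrays set to one median, 86 under quantile normalization, 510 with the 20th percentile as floor, 52 with the 60th, 44 with a pseudocount, 812 at 1.5-fold and 13 at 3-fold. The share of higher among all genes 2-fold apart moves with it, so the split of 176 to 142 belongs to this scaling and floor. One alternative left out every probe set with a suffix letter, such as a, s or x. There Mdm4 had a log2 difference of 0.42 and Pim3 of -0.19, opposite in sign to the probe sets used. The cause was not tested. Of the genes, 3971 were under the floor on both arrays and have no value. With 1 array per time no alternative measures the error between cultures. No paired analysis was possible because each time has 1 array and the labels give no replicate numbers.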
